A study of Mus musculus with 2 samples.

Results

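The 10 genes described here are the regulatory T cell transcription factors Foxp3, Ikzf2 (Helios), Ikzf4 (Eos) and Maf, the surface protein gene Izumo1r (folate receptor 4), the secreted factors Il10, Ebi3 and Areg, and 2 genes of TGF-β activation, Lrrc32 (GARP) and Itgb8. They were named as a list, 10 of 32285 genes in the matrix, and all 10 matched the feature list by symbol and identifier. The cells in which they are described carried at least 1 Foxp3 UMI (unique molecular identifier, 1 captured RNA molecule) and no UMI of Cd8a or Cd8b1. There were 497 such cells of 10406 kept, and they are called Foxp3+ cells below.

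The cells came from melanoma tumours of C57BL/6J mice that received the lactic acid bacterium L. reuteri (LR, 4 mice) or PBS (4 mice). Every cell was stained with a hashtag antibody that marks its mouse, and the hashtag names give LR mice 1 to 4 and PBS mice 6 to 9. The labels describe the cells as CD3+ T cells and, in the protocol, as a sort of 8000 live CD8+ cells per mouse after CD90.2 enrichment. Foxp3+ cells without Cd8 UMIs lie outside a strict CD8 sort, so their share of a library can be set by the sort. Cells of 1 treatment were pooled before loading, so handling after the sort cannot be told apart from treatment, and all 8 mice shared 1 lane. The labels used here give no age, dose, or schedule.

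Regulatory T cells are CD4 T cells that hold back other T cells, and Foxp3 is the transcription factor that defines them. They act through secreted cytokines such as interleukin 10 and interleukin 35 (Ebi3 is one of its chains), by releasing active TGF-β held on their surface by GARP and the integrin αvβ8, and in tissues also through repair factors such as amphiregulin, the product of Areg. In tumours such cells are known to dampen responses of CD8 T cells.

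Per mouse, 479 to 2588 cells were kept, with median depths of 2952.5 to 3604.5 UMIs. Foxp3+ cells numbered 14, 95, 34 and 99 in LR mice 1 to 4 and 48, 72, 96 and 39 in PBS mice 6 to 9, so LR mouse 1 carries little weight. Their median depth was 4335 UMIs. They were compared with 1827 CD4 cells without a Foxp3 UMI (at least 1 Cd4 UMI; median 2910 UMIs), with the 183 of those that had Pdcd1 and no Cd8 UMI, and with 1775 Pdcd1-positive CD8 cells (median 5618 UMIs). Pdcd1-positive CD8 cells, which were deeper than Foxp3+ cells, also stand beside the share of all Foxp3+ cells with a UMI of each member, as cells outside the regulatory T cell lineage. Because detection depends on depth, shares of cells are also given at 2000 UMIs per cell, the exact expectation when each cell with at least 2000 UMIs is thinned to that number. Shallower cells are left out of these shares, which rest on 422 of the 497 Foxp3+ cells, 1399 of the 1827 CD4 cells and 1630 of the 1775 Pdcd1-positive CD8 cells. Levels are CPM, UMIs per 1000000 UMIs summed over a mouse's cells of a gate. These count molecules and are not divided by gene length, so levels of different genes are not ranked.

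Markers of regulatory T cells were detected in unequal shares of the cells, given here without a comparison with other gates. Ctla4 was detected in 88.1% of Foxp3+ cells, Tnfrsf18 in 87.5%, Tnfrsf4 in 80.5% and Il2ra in 49.9%. The T cell gene Cd3e was detected in 94.4% and Cd4 in 64.2%. Of the 5 NK markers, Ncr1 and Klre1 were at 0 and the summed level lay between 0 and 47.5 CPM in LR mice and between 0 and 37.5 CPM in PBS mice. Summed B cell markers, with Ms4a1 at 0, lay between 78.1 and 233 CPM in LR mice and between 162 and 379 CPM in PBS mice, and the 7 myeloid markers between 8.68 and 131 CPM and between 6.11 and 99.99 CPM. The 5 melanoma markers reached at most 4.17 CPM in any mouse. The part of this background RNA in the values below was not tested.

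Foxp3 was captured sparsely. Of the 497 cells, 153 had 1 Foxp3 UMI, 110 had 2 and 234 had 3 or more, with a highest count of 16. At 2000 UMIs, only 71.9% ± 4.94 (SD, n = 8 mice) of the 422 Foxp3+ cells with that depth would still show a Foxp3 UMI, so the CD4 cells without Foxp3 can include regulatory T cells whose Foxp3 was not captured. Foxp3 lies at X:7573644-7595245 on GRCm38, and its level is fixed in part by the gate, so it is given no test between gates.

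Among the other transcription factors, Ikzf2, a zinc finger factor of the Ikaros family that stabilises the regulatory T cell state, was the most often detected member besides Foxp3, in 383 of 497 Foxp3+ cells (77.1%) against 32.2% of Pdcd1-positive CD8 cells. Ikzf2 (1:69531214-69687245) stood at 625, 514, 488 and 576 CPM in LR mice 1 to 4 and at 562, 515, 356 and 428 CPM in PBS mice 6 to 9. The groups overlapped, with the lowest values in PBS mice 8 and 9. Maf, a leucine zipper factor that drives Il10 in several T cell types, was detected in 55.7% of Foxp3+ cells and 4.85% of Pdcd1-positive CD8 cells. Maf (8:115682942-115707794) was even across mice, at 226, 161, 209 and 204 CPM in LR mice and 204, 196, 196 and 232 CPM in PBS mice. Ikzf4, an Ikaros relative that works with Foxp3 in gene silencing, was detected in 21.9% and 4.23%. Ikzf4 (10:128630843-128645991) ranged from 22.7 to 91.7 CPM over the 8 mice, highest in LR mouse 3 and lowest in PBS mice 8 and 9.

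Izumo1r, a folate receptor family protein used as a surface marker of regulatory T cells, was detected in 58.4% of Foxp3+ cells and 11.3% of Pdcd1-positive CD8 cells. Izumo1r (9:14885814-14903949) stood at 139, 218, 235 and 309 CPM in LR mice 1 to 4 and at 265, 331, 292 and 348 CPM in PBS mice 6 to 9. LR mice 1 to 3 lay below all PBS mice and LR mouse 4 lay among them.

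The secreted factors were found in fewer cells and were less even. Ebi3 (17:55952640-55957022) was detected in 36.4% of Foxp3+ cells against 5.13% of Pdcd1-positive CD8 cells, at 78.1, 102, 165 and 93.0 CPM in LR mice and 132, 127, 109 and 141 CPM in PBS mice. Il10 (1:131019845-131024974) was detected in 21.5% against 2.54%, at 17.4, 97.1, 51.4 and 158 CPM in LR mice and 39.3, 81.2, 80.3 and 134 CPM in PBS mice. Areg (5:91139599-91148432), which encodes a ligand of the EGF receptor, was detected in 19.9% against 2.42%. Its level spread most, at 8.68, 208, 40.4 and 216 CPM in LR mice and 35.8, 81.2, 284 and 36.7 CPM in PBS mice. High and low mice occurred under both treatments. A few cells carried much of this RNA: the 10 cells richest in Areg held 38.4% of its 453 UMIs, with up to 33 in 1 cell, and the 10 richest in Il10 held 31.6% of 272 UMIs. By contrast the 10 cells richest in Ikzf2 held 9.68% of 1487 UMIs.

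The TGF-β genes were near the limit of capture. Itgb8 (12:119158022-119238802), the β chain of the integrin that frees TGF-β, was detected in 13.3% of Foxp3+ cells, and Lrrc32 (7:98489283-98502181), whose product holds latent TGF-β on the cell surface, in 11.5%. In Pdcd1-positive CD8 cells the shares were 1.01% and 0.338%. Of the Foxp3+ cells with an Itgb8 UMI, 71.2% had only 1, as did 77.2% of those with Lrrc32. Lrrc32 lay between 8.68 and 28.4 CPM and Itgb8 between 12.2 and 51.4 CPM over the 8 mice.

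**Figure D1:**
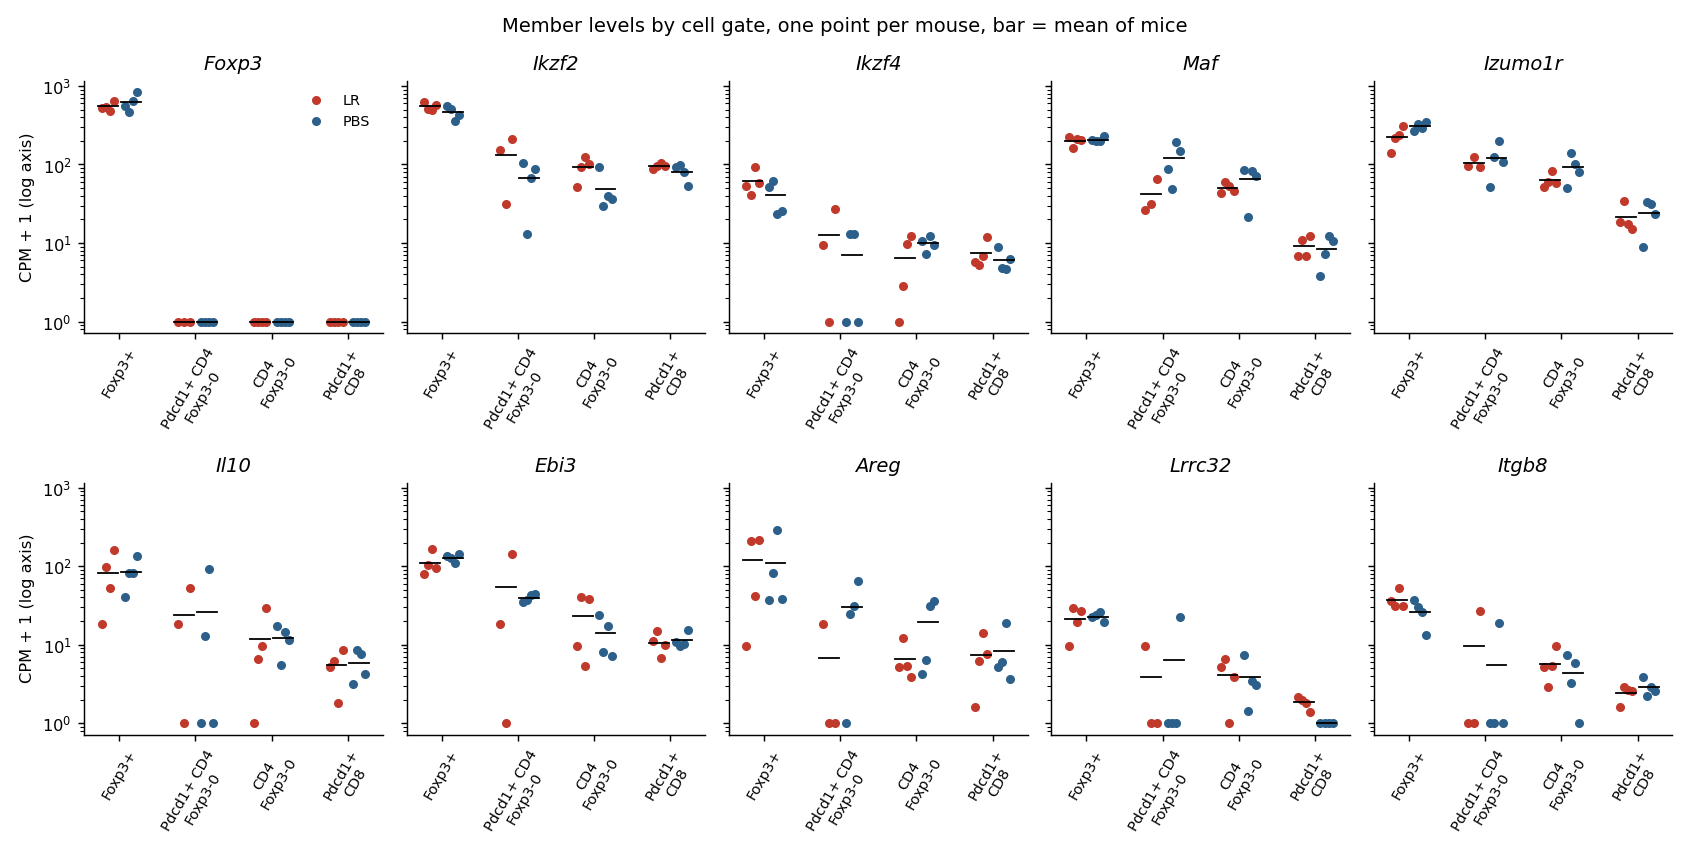
Level of each of the 10 genes (CPM + 1, log axis) in 4 cell gates, 1 point per mouse with at least 10 cells, LR in red and PBS in blue, with a bar at the mean of each treatment. Foxp3 is 0 in 3 gates by their definition; the other genes have their highest mean in Foxp3+ cells, and Areg and Il10 spread over mice more than Ikzf2 or Maf.

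Foxp3+ cells were compared with CD4 cells without Foxp3 from the same 8 mice, to see which of these genes set them apart from other CD4 cells. The 9 other members passed the filter on low counts and all 9 were higher in Foxp3+ cells, in 8 of 8 mice each (edgeR's quasi-likelihood test with mouse as a block, Benjamini-Hochberg adjusted over 7181 genes). Of all genes tested, 20.7% were called higher and 20.5% lower, 1483 and 1472 genes, and 1777 and 1214 when library totals replaced TMM scaling. The weakly expressed members passed that filter through the Foxp3+ cells, so the count describes the list and is no test of it. The log2 ratio was 3.23 ± 0.32 (SE) for Areg, 3.02 ± 0.46 for Lrrc32, 3.0 ± 0.25 for Il10 and 2.93 ± 0.18 for Ikzf2. It was 2.83 ± 0.36 for Itgb8, 2.72 ± 0.29 for Ebi3 and 2.49 ± 0.32 for Ikzf4. Maf and Izumo1r differed least, by 1.82 ± 0.19 and 1.69 ± 0.15. Ikzf2, Maf and Izumo1r passed the filter in the CD4 cells alone, and the other 6 did not.

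Shares at equal depth put Ikzf2 first. With cells thinned to 2000 UMIs, Ikzf2 was found in 59.1% ± 8.63 of Foxp3+ cells (SD, n = 8 mice) and in 6.15% ± 2.66 of CD4 cells without Foxp3. Izumo1r was found in 37.3% ± 4.73 against 12.1% ± 3.08, and Maf in 33.5% ± 4.89 against 8.53% ± 3.69. Ebi3 was found in 19.2% ± 4.54 against 2.01% ± 1.44, Il10 in 12.2% ± 4.31 against 1.57% ± 1.90, and Areg in 10.6% ± 7.18 against 0.798% ± 0.536. Izumo1r and Maf thus had the highest shares of the 9 in CD4 cells that lacked a Foxp3 UMI. Without thinning, 52 of 1827 such CD4 cells (2.85%, median 2910 UMIs) carried 3 or more of the 9 other members. The unthinned share was 64.6% in the deeper Foxp3+ cells (median 4335 UMIs). It was 2.20% in Pdcd1-positive CD8 cells, the deepest of these gates (median 5618 UMIs). The CD4 gate also holds 503 cells with a Cd8a or Cd8b1 UMI (median 3196 UMIs) and 1324 without (median 2813.5 UMIs). At 2000 UMIs, pooled over mice, Ikzf2 was found in 5.08% and 3.80% of these. The unthinned shares were 10.5% and 6.65%.

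A narrower comparison used Pdcd1-positive CD4 cells without Foxp3, whose Pdcd1 encodes the inhibitory receptor PD-1. LR mouse 1 had only 4 such cells and was left out. Of the 9 members, 7 passed the filter and 7 were called higher, where 4.56% of 4366 genes were higher and 4.83% lower, again a description of the list. Areg was higher by 2.83 ± 0.43, Ikzf2 by 2.45 ± 0.28 and Ikzf4 by 2.06 ± 0.49. Il10 was higher by 1.52 ± 0.41 (adjusted p = 0.022) and Ebi3 by 1.36 ± 0.35 (adjusted p = 0.018), each in 6 of 7 mice. Izumo1r was higher by 1.28 ± 0.20 and Maf by 1.23 ± 0.27, in 7 of 7 mice. Il10 passed in 11 of 14 alternative settings and Ebi3 in 12 of 14, and both missed the threshold without LR mouse 2 (adjusted p = 0.070 and 0.055 in edgeR) and without PBS mouse 7 (0.079 and 0.063). Neither gene passed the filter on low counts in CD4 cells without Foxp3 alone. Their p-values and settings passed are therefore a description and no test. Lrrc32 and Itgb8 were too low to test, with 2 Lrrc32 UMIs in the 183 cells.

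Pdcd1-positive CD8 cells, the other activated population of the tumours, were lower than Foxp3+ cells in all 9 members, in 8 of 8 mice each. Only Ikzf2, Maf, Izumo1r and Ebi3 passed the filter in the CD8 cells alone, so the count is again no test of the list. Of 8555 genes, 14.5% were called higher in Foxp3+ cells and 13.6% lower. The split of all calls was 1241 higher and 1166 lower, and 1500 and 896 when library totals replaced TMM scaling. Maf differed by 4.52 ± 0.17 on the log2 scale, Il10 by 4.09 ± 0.23, Areg by 4.07 ± 0.27 and Itgb8 by 3.99 ± 0.33. Izumo1r differed by 3.55 ± 0.18, Ebi3 by 3.40 ± 0.17 and Ikzf4 by 2.91 ± 0.23. Ikzf2 differed least, by 2.45 ± 0.10. The Lrrc32 value, 5.16 ± 0.49, rests on 6 UMIs in 1775 CD8 cells, all of them in LR mice.

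Ikzf2 was also the member seen most often in Pdcd1-positive CD8 cells. At 2000 UMIs it was found in 13.4% ± 2.99 of these and in 6.15% ± 2.66 of CD4 cells without Foxp3, a comparison that was not among the planned tests. The difference had the same sign in 8 of 8 mice (exact sign-flip test, two-sided, p = 0.0078, the smallest that 8 mice allow; adjusted over 9 members p = 0.023). Maf went the other way, at 1.64% ± 0.757 in Pdcd1-positive CD8 cells and 8.53% ± 3.69 in the CD4 cells, as did Izumo1r at 4.65% ± 2.0 and 12.1% ± 3.08 (0 of 8 mice higher in CD8 cells, same exact p and an adjusted p of 0.023 each). Without thinning, Izumo1r did not pass (11.8% ± 4.77 and 15.8% ± 4.36, 7 of 8 mice lower in CD8 cells, adjusted p = 0.082 by the exact test). The CD4 cells here were not chosen for Pdcd1, so lineage and Pdcd1 cannot be told apart in these differences. In Pdcd1-positive CD4 cells without Foxp3 (7 mice), Ikzf2 had a mean of 94.2 CPM, against 87.6 CPM in Pdcd1-positive CD8 cells (8 mice). Maf stood at 85.2 and 7.84 CPM and Izumo1r at 113 and 21.9 CPM, described without a test.

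**Figure D2:**
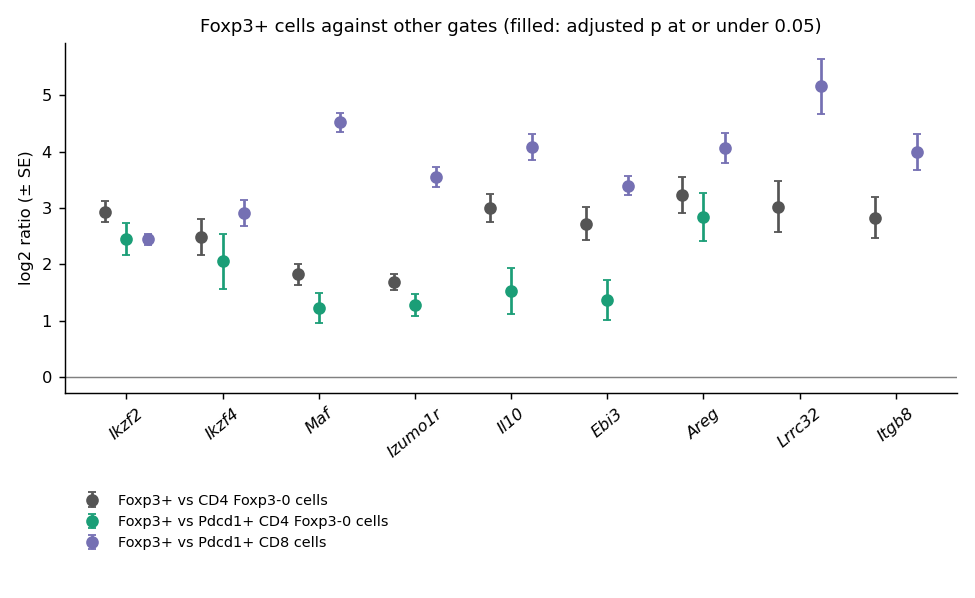
Log2 ratio (± SE, edgeR) of 9 genes in Foxp3+ cells over CD4 cells without Foxp3 (grey), Pdcd1-positive CD4 cells without Foxp3 (green) and Pdcd1-positive CD8 cells (purple); filled points passed the adjusted threshold of 0.05. All points lie above 0. Between grey and purple points the gap is widest for Maf (1.82 and 4.52), then Lrrc32 (3.02 and 5.16) and Izumo1r (1.69 and 3.55). Between green and purple points it is widest for Maf (1.23 and 4.52), then Il10 (1.52 and 4.09) and Izumo1r (1.28 and 3.55).

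Partners and receptors of the members moved in both directions. Against CD4 cells without Foxp3, 4 of 12 tested were higher and 4 lower, where 20.7% of all genes were higher and 20.5% lower. Itgav, the α chain that pairs with the β8 integrin, was higher by 1.92 ± 0.17, and Il12rb1, a cytokine receptor chain, by 1.97 ± 0.25. Tgfb1 itself was higher by 0.51 ± 0.12. Tgfbr2, the receptor that senses TGF-β, was lower by 2.06 on the log2 scale (the ratio was -2.06 ± 0.13). Against Pdcd1-positive CD8 cells, 6 of 13 were higher, among them Il6st (1.47 ± 0.24), a signalling chain shared by several cytokines, and Itgav (0.90 ± 0.11). There 2 were lower, among them Il10ra, the interleukin 10 receptor chain (-1.04 ± 0.11). Of all genes in that comparison, 14.5% were higher and 13.6% lower.

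Of 30 further regulatory T cell genes, 28 were tested against CD4 cells without Foxp3, where 24 were higher and 0 lower. Of all genes, 20.7% were higher and 20.5% lower. These genes were listed for their link to regulatory T cells, so the counts here describe the list and are no test. Klrg1, a lectin-like receptor of effector lymphocytes, had the largest ratio at 3.86 ± 0.29, followed by the interleukin 2 receptor α chain Il2ra at 3.46 ± 0.24. The costimulatory receptors Tnfrsf9 and Tnfrsf4 were higher by 3.09 ± 0.18 and 3.04 ± 0.26. Against Pdcd1-positive CD8 cells, 22 of 29 were higher and 2 lower, where 14.5% of all genes were higher and 13.6% lower. Klrg1 (3.26 ± 0.19), the chemokine receptor Ccr8 (2.76 ± 0.15) and the ectoenzyme Nt5e (2.74 ± 0.28) led there. Against Pdcd1-positive CD4 cells, 20 of 24 were higher and 0 lower, where 4.56% of all genes were higher and 4.83% lower. Among relatives of the transcription factors, Ikzf1 went the other way from Ikzf2 and Ikzf4. Ikzf1, which encodes Ikaros itself, was lower than in CD4 cells without Foxp3 (-1.43 ± 0.15) and than in Pdcd1-positive CD8 cells (-0.77 ± 0.13).

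Joint detection shows which members were found in the same cell. A Foxp3+ cell carried a median of 3 of the 9 other members; 45 cells carried none and the highest number was 8. Ikzf2 and Izumo1r were both found in 246 cells (49.5%), and Ikzf2, Maf and Izumo1r together in 173 (34.8%). Areg or Il10 was found in 169 cells (34.0%) and both in 37 (7.44%). At least 1 of Il10, Ebi3 and Areg was found in 270 (54.3%).

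Deep cells show more genes, so joint counts were compared with those expected from the detection rates within each mouse and within 10 bins of depth. Of 36 pairs, 33 were seen together more often than expected. Pairs of other genes were not counted, so this number has no background share and is a description. Ikzf2 with Maf had the largest excess in cells, 252 against 234.5 expected, above expectation in 8 of 8 mice (exact sign-flip test, p = 0.0078). Ikzf2 with Ikzf4 was seen in 106 cells against 96.4, so that 97.2% of cells with Ikzf4 also had Ikzf2. Il10 with Areg had the highest ratio of observed to expected, 37 cells against 27.1 (odds ratio 2.25), above expectation in 6 of 8 mice (exact p = 0.070). Izumo1r with Itgb8 was seen in 49 cells against 39.1. After adjustment over the 36 pairs by the exact test, 0 passed, with a smallest adjusted p of 0.11, while 11 pairs had an unadjusted p of 0.05 or less.

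Depth enters these counts directly. Without the depth bins, 14 of 36 pairs passed the same exact test. The cells included also changed the count. With the 10 depth bins kept, 17 pairs passed once the 297 cells that have Foxp3 together with a Cd8 UMI were added. With 8 mice and 36 pairs, no pair can pass unless several reach the smallest p together.

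**Figure D3:**
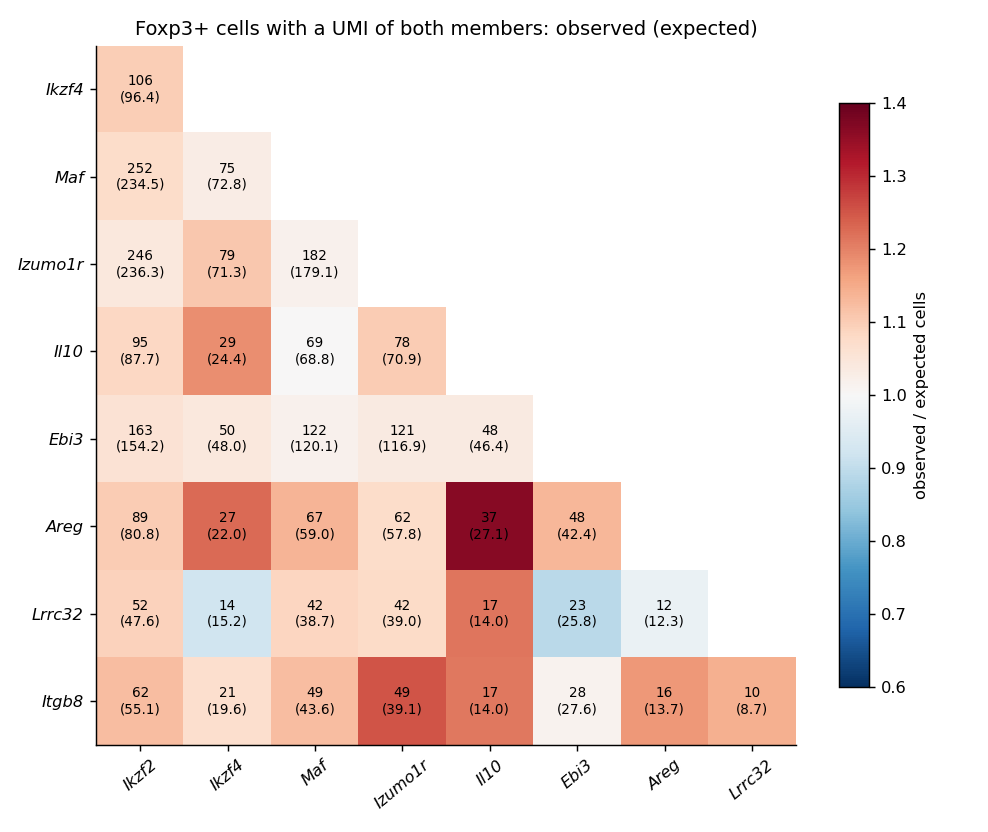
Number of Foxp3+ cells with a UMI of both genes of a pair, with the number expected within mouse and depth bin in brackets; the colour gives observed over expected. Most squares are above 1, Il10 with Areg is the darkest at 37 against 27.1 cells, and 3 pairs with Lrrc32 are below 1.

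The gate has 2 edges, described here without a test. Cells with a single Foxp3 UMI were shallower (median 2543 UMIs), and at 2000 UMIs, over the 102 of 153 with that depth, Ikzf2 was found in 45.7% of them, Izumo1r in 31.4% and Maf in 21.1%. In cells with 3 or more Foxp3 UMIs (228 of 234) the shares were 61.0%, 39.4% and 36.6%. Areg varied less along this edge, at 12.3% and 14.3%. Ikzf4 ran the other way, at 10.9% and 8.58%, as did Itgb8 at 7.57% and 5.95%, while Il10, Ebi3 and Lrrc32 rose. Summed CPM was higher with 1 Foxp3 UMI for Ikzf2 (525 and 486) and Izumo1r (319 and 265), and lower for Maf (145 and 208). On the other edge stand the 297 Foxp3-positive cells left out for a Cd8a or Cd8b1 UMI. The 170 with 1 such UMI (145 deep enough) showed Ikzf2 in 54.8%, Maf in 32.7% and Areg in 15.0%, close to the cells inside the gate. The 127 with 2 or more (119 deep enough) showed Ikzf2 in 36.2%, Maf in 16.1% and Areg in 4.51%.

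Treatment was compared within Foxp3+ cells, 4 LR against 4 PBS mice. No gene passed: 0 of 5176 (0%) were called by edgeR's quasi-likelihood test, 0 by DESeq2, and 190 had an unadjusted p under 0.05 in edgeR. For the 9 members tested, adjusted p was 1.00. The 9 include Foxp3, which chose the cells, so its value is a description and no test. Izumo1r had the smallest unadjusted p, with a log2 ratio of LR to PBS of -0.39 ± 0.19 and means of 225 and 309 CPM. Ikzf4 stood at 0.50 ± 0.34, Itgb8 at 0.36 ± 0.32, Il10 at 0.26 ± 0.37 and Ikzf2 at 0.24 ± 0.16. The mean Il10 levels ran the other way from its ratio, 81.0 CPM in LR and 83.8 CPM in PBS mice. Areg stood at 0.21 ± 0.56, Ebi3 at -0.19 ± 0.22, Foxp3 at -0.16 ± 0.18 and Maf at -0.07 ± 0.17. For each of the 9, the LR and PBS mice overlapped, as they did for all but 2.26% of genes tested. The Areg value depended on single mice: its ratio was 1.32 without PBS mouse 8, the richest in Areg, and -0.13 without LR mouse 2, with adjusted p of 1.00 in both.

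The size of change that could be recovered was checked on counts simulated for this comparison. They had the same fixed spread between mice for every gene, not estimated from these mice. Of 100 genes changed by a log2 ratio of 1, 22% were recovered, and of 100 changed by 2, 85%. Most changes of a log2 ratio of 1 were therefore not recovered at that spread. Recovery for genes with another spread between mice was not simulated. Leaving out LR mouse 4 gave 2 genes lower under LR, the transcription factor gene Jun and the receptor segment Trav4-3, neither a member.

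Shares of cells at 2000 UMIs were compared next, over 12, 83, 31 and 85 cells of LR mice 1 to 4 and 34, 63, 82 and 32 of PBS mice 6 to 9. Ebi3 was found in 16.2% ± 3.89 of Foxp3+ cells of LR mice and 22.1% ± 3.03 of PBS mice (n = 4 each; two-sided exact permutation test, p = 0.086, adjusted over 9 members p = 0.69). Ikzf4 was found in 14.8% ± 5.53 and 9.23% ± 4.98, and Ikzf2 in 61.6% ± 4.86 and 56.6% ± 11.6. No member passed. With 4 against 4 mice the exact p cannot go below 0.029, so no single member could pass after adjustment over 9, and this says nothing on whether shares differ.

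**Figure D4:**
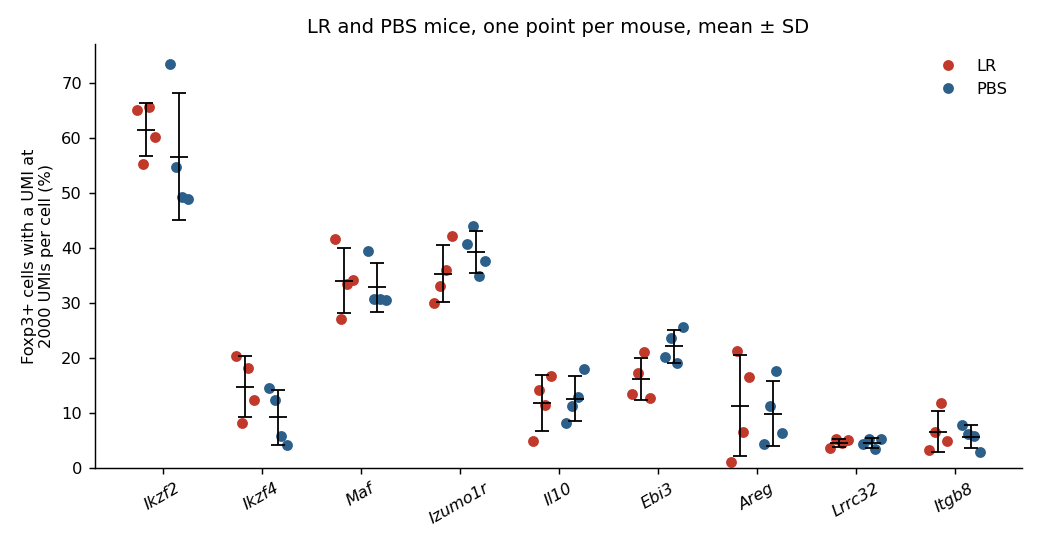
Share of Foxp3+ cells with a UMI of each gene at 2000 UMIs per cell, 1 point per mouse, with mean ± SD of 4 LR (red) and 4 PBS (blue) mice. The groups overlap for all 9 genes; Ebi3 has the smallest p, with means of 16.2% and 22.1%.

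The share of all cells that were Foxp3+ was 1.07%, 9.33%, 7.10% and 9.98% in LR mice 1 to 4 and 7.84%, 2.78%, 5.86% and 2.20% in PBS mice 6 to 9. The means, 6.87% ± 4.06 and 4.67% ± 2.66, lay within the spread between mice (exact permutation test, p = 0.37). Without LR mouse 1 the difference between means was 4.13 percentage points in place of 2.20, with an exact p of 0.11. This share can be set by the sort.

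In CD4 cells without Foxp3, 0 of 5515 genes (0%) were called between treatments by edgeR, 329 had an unadjusted p under 0.05, and DESeq2 called 1, the chemokine gene Ccl3. Only Ikzf2, Maf and Izumo1r were high enough to test there. Ikzf2 stood at 51.0, 91.3, 124 and 99.7 CPM in LR mice 1 to 4 and at 90.7, 29.0, 38.6 and 35.3 CPM in PBS mice 6 to 9. PBS mouse 6 alone lay among the LR mice, so the groups overlapped, as for all but 2.83% of genes. The log2 ratio was 1.14 ± 0.30 with an adjusted p of 0.51, and 1.41 with an adjusted p of 0.032 without PBS mouse 6. Izumo1r stood at -0.74 ± 0.28 (adjusted p = 0.80) and Maf at -0.19 ± 0.40. With no filter on low counts, Ikzf2 and Izumo1r both passed in edgeR (adjusted p = 0.00051 and 0.027).

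Foxp3+ cells made up 31.9% ± 13.5 of Foxp3+ and CD4 cells together in LR mice and 19.8% ± 10.0 in PBS mice (exact permutation test, p = 0.26). The 22 further regulatory T cell genes tested in CD4 cells without Foxp3 had a median LR to PBS log2 ratio of 0.59, with 0 called. The median over all 5515 genes tested there was 0.0045. The part of regulatory T cells with uncaptured Foxp3 in the Ikzf2 value was not tested. The difference between the Ikzf2 ratios of the 2 gates was -0.85 ± 0.32, with an adjusted p of 1.00 by edgeR's interaction test, which called 0 of 7181 genes (280 at an unadjusted p under 0.05). In Pdcd1-positive CD8 cells, 1 of 8698 genes (0.0115%) was called, Gzmb (0.72 ± 0.09), and the 4 members tested were not. The Gzmb call was lost, with 0 genes called, when LR mouse 2 or any 1 of the 4 PBS mice was left out.

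Within Foxp3+ cells, Klf2, a factor of resting and recirculating T cells, was detected in 178 cells (median 3456.5 UMIs) and not in 319 (median 4730 UMIs). LR mice 2 and 4 and the 4 PBS mice had at least 10 cells on both sides. Of 4870 genes, 40 (0.821%) were called, and 24 were called without LR mouse 2 and 15 without PBS mouse 8. Of the 9 members tested 0 were called. Foxp3 is among these 9, but it chose the cells, so its value is a description. Il10 came closest. It stood at 32.0 and 33.3 CPM in Klf2-positive cells of LR mice 2 and 4 and at 66.7, 13.4, 75.7 and 131 CPM in those of PBS mice 6 to 9. In Klf2-negative cells it stood at 122 and 197 CPM and at 36.1, 112, 85.3 and 137 CPM. The value was lower in Klf2-positive cells in 5 of 6 mice, with a log2 ratio of -1.26 ± 0.32 and an adjusted p of 0.065 in edgeR, and it passed in 4 of 13 alternative settings. Foxp3, Maf, Izumo1r and Ikzf4 stood between -0.02 and 0.13, changing sign under some settings, while Ikzf2 stood at -0.26 ± 0.14.

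Mki67, a marker of dividing cells, was detected in 130 Foxp3+ cells (median 9197 UMIs) and not in 367 (median 3709 UMIs), compared in LR mice 2 to 4 and PBS mice 6 to 8. As shares of all UMIs, 3 of the 8 members tested besides Foxp3 were lower in Mki67-positive cells, where 12.2% of 4473 genes were lower and 14.7% higher. Izumo1r stood at 209, 94.5 and 283 CPM in Mki67-positive cells of LR mice 2 to 4 and at 140, 199 and 236 CPM in those of PBS mice 6 to 8. In Mki67-negative cells it stood at 230, 402 and 324 CPM and at 409, 439 and 320 CPM, higher in 6 of 6 mice (log2 ratio -0.77 ± 0.18, adjusted p = 0.0027 in edgeR).

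Itgb8 differed by -1.19 ± 0.37 in 6 of 6 mice (adjusted p = 0.021) and Maf by -0.49 ± 0.16 in 5 of 6 mice (adjusted p = 0.025). Izumo1r passed in 13 of 13 alternatives, Itgb8 in 7 of 9 and Maf in 7 of 13. Of the further regulatory T cell genes, 13 of 26 were lower and 0 higher, against 12.2% and 14.7% of all genes. Among the lower genes were Cd27 (-0.80 ± 0.14) and Tnfrsf9 (-0.77 ± 0.13). Among the partners 4 of 10 were lower, including Itgav (-0.80 ± 0.16). These are shares of a larger pool of RNA. Counted per cell, Izumo1r stood at 1.99 ± 0.507 UMIs in Mki67-positive cells (SD, n = 6 mice) and 1.57 ± 0.423 in Mki67-negative cells (n = 7), Maf at 1.71 ± 0.379 and 1.02 ± 0.258, and Itgb8 at 0.200 ± 0.058 and 0.202 ± 0.140. Foxp3 was 454 and 646 CPM in the same 6 mice, given without a test because Foxp3 chose the cells.

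**Figure D5:**
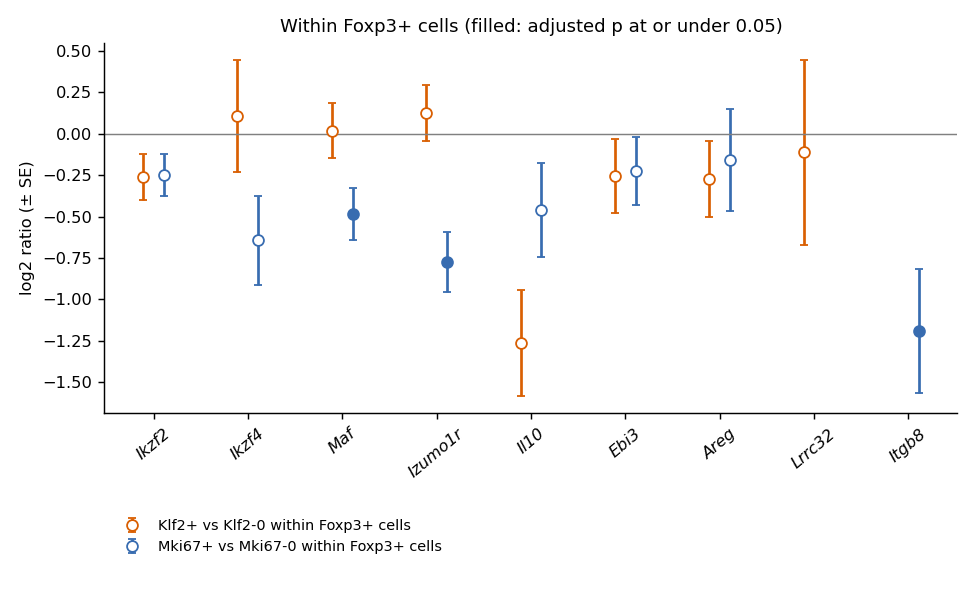
Log2 ratio (± SE, edgeR) within Foxp3+ cells for Klf2-positive over Klf2-negative cells (orange) and Mki67-positive over Mki67-negative cells (blue); filled points passed the adjusted threshold of 0.05. Il10 is lowest in the Klf2 split at -1.26 without passing, and Izumo1r, Itgb8 and Maf are lower in the Mki67 split.

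Genes with a pattern most like each member were ranked by Pearson's r of log2(CPM + 10) over 31 profiles of a mouse and a gate, where the gates used Il2ra, Cd4, Cd8 and Pdcd1 but no member. The profiles share 1 lane and 8 mice, and r is a description. Maf was nearest to Foxp3 (0.96), then Icos (0.94) and Ly6a (0.94), and Izumo1r was also nearest to Foxp3 (0.94) and Maf (0.93). Il10 and Ebi3 were nearest to Foxp3 as well (0.93 and 0.95), while the gene nearest to Foxp3 itself was Psen2 (0.96). Ikzf2 was nearest to Glrx (0.97), Odc1 (0.96) and Capg (0.96), with Foxp3 not among its first 5. Areg was nearest to Il10 (0.89), then Coro7 (0.86) and Ctsz (0.85). The leading value was 0.84 for Ikzf4 (Prdx4), 0.89 for Lrrc32 (Igflr1) and 0.85 for Itgb8 (Nlrx1).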

How the data were processed

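The deposited matrix holds raw UMI counts for genes and hashtags in 16969 barcodes, written by the authors with Cell Ranger 4.0.0 against GRCm38, per the file headers and the submitters' processing notes. A minimum of 500 genes and a ceiling of 10% mitochondrial UMIs left 14474 barcodes. A Gaussian mixture per hashtag assigned mice; 2571 barcodes with 2 or more tags (17.8%), 677 with none and 820 single-tag barcodes marked by Scrublet were removed. UMI counts were summed per mouse and gate and tested with edgeR 4.0.16 (R 4.3.3; TMM, filterByExpr, quasi-likelihood, adjusted threshold 0.05), with the mouse as a block between gates of the same mice; a mouse with fewer than 10 cells in a gate was left out. The block rests on both gates holding cells of the same animal. DESeq2 1.42.0, other scalings, filters, gates and left-out mice were alternatives. Including Foxp3-positive cells with Cd8 UMIs, and other depths for the shares of Pdcd1-positive CD8 cells, were chosen after seeing the data. The test of those shares against CD4 cells without Foxp3 was itself not among the planned tests. Methods were tested on simulated data. All p-values measure the spread between the mice used in each comparison, at most 8, on 1 lane.

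The members and gene lists were chosen with earlier results of these data known. Named from each list were up to 4 genes per comparison with the largest ratio among those called, with 1 direction in every mouse and detected in at least 5% of Foxp3+ cells, and the 3 genes most like each member. Gzmb, Ccl3, Jun, Trav4-3, Cd69 and Ly6c2 were named after their values were seen, because few genes were called. No sequence is printed, and 1 planned background gate is not reported here. NK cells (21) and myeloid cells (11) were too few for profiles. Gene positions are GRCm38, from the GENCODE annotation.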

Additional observations from a re-analysis of the deposited data

Results flagged for a closer look

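In each treatment's 4 mice, the highest and lowest values of the members were compared with the others (57 groups, of which chance would flag about 2.85); 2 stood apart. Ikzf2 in CD4 cells without Foxp3 was 90.7 CPM in PBS mouse 6 and 29.0 to 38.6 CPM in the other PBS mice. Areg in Pdcd1-positive CD8 cells was 17.7 CPM in PBS mouse 8 and 2.66 to 5.00 CPM in the other PBS mice, and the same mouse had the highest Areg level in Foxp3+ cells.

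A 9th hashtag, named for an LR mouse 5, is in the matrix although the labels describe 4 mice per condition; its median was 0 and its highest count in a barcode 181 UMIs, and it was not used.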

How the results depend on the processing

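Between Foxp3+ cells and the CD4 and the Pdcd1-positive CD8 cells, the members tested kept their direction and call under every alternative run. Counts of genes called moved as follows. With no filter on low counts, LR against PBS gave 41 in Foxp3+ cells, 93 in CD4 cells without Foxp3 and 27 in Pdcd1-positive CD8 cells, Foxp3+ against Pdcd1-positive CD4 cells gave 670 and the Klf2 split 102. DESeq2 gave 1, 3, 22 and 537 in CD4 cells, Pdcd1-positive CD8 cells, the Klf2 split and the Mki67 split. Including Foxp3-positive cells with Cd8 UMIs gave 2 genes between treatments (Cd69 and Ly6c2, both lower under LR), 124 in the Klf2 split, 2227 in the Mki67 split and 17 pairs; without depth bins 14 pairs passed. With Foxp3 of 2 or more UMIs the Klf2 split gave 4, and with no replicate block, which leaves out the pairing by mouse, 12; without the block Il10 against Pdcd1-positive CD4 cells was 1.43 (adjusted p = 0.060), and no other call of a member was lost. The cause was not tested.

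Leaving out 1 mouse in turn, counts of calls between treatments ranged from 0 to 2 in Foxp3+ cells, 0 to 4 in CD4 cells (4 without PBS mouse 6) and 0 to 2 in Pdcd1-positive CD8 cells, from 257 (without PBS mouse 7) to 390 against Pdcd1-positive CD4 cells, from 15 to 47 in the Klf2 split and from 877 to 1104 in the Mki67 split, and the difference in Foxp3+ share from 1.16 to 4.13 points.
The same leave-one-out ranges crossed 0, on the log2 scale, for these members. Between treatments in Foxp3+ cells they ran from -0.29 to 0.0035 for Foxp3, -0.12 to 0.039 for Maf, -0.19 to 0.46 for Il10 and -0.13 to 1.32 for Areg. In CD4 cells Maf ran from -0.63 to 0.12. In Pdcd1-positive CD8 cells Maf ran from -0.12 to 0.41, Izumo1r from -0.48 to 0.068 and Ebi3 from -0.37 to 0.068. In the Klf2 split Foxp3 ran from -0.062 to 0.020, Ikzf4 from -0.057 to 0.25, Maf from -0.068 to 0.13 and Lrrc32 from -0.29 to 0.21, and in the Mki67 split Areg from -0.51 to 0.44. Differences in share between treatments, in percentage points, ran from -1.28 to 3.57 for Maf, -2.40 to 1.56 for Il10, -1.85 to 4.86 for Areg, -0.39 to 0.34 for Lrrc32 and -0.79 to 2.08 for Itgb8.

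Other settings that turned a direction did so mostly in the Klf2 split, where no member was called. Foxp3 became 0.0019 with library totals, 0.020 with Scrublet-marked cells kept, 0.0053 with no replicate block and 0.0034 with Cd8-positive cells included. Maf became -0.077 with no filter, -0.043 with Scrublet-marked cells and -0.13 with Cd8-positive cells. Ikzf4 became -0.057 with no replicate block and -0.078 with Cd8-positive cells, Izumo1r -0.20 with the latter, and Lrrc32 0.10 by DESeq2. With Foxp3 of 2 or more UMIs Ebi3 became 0.015 and Areg 0.13. Differences in share became -0.097 for Areg and -0.19 for Lrrc32 at 1000 UMIs, 0.10 for Izumo1r and 2.25 for Il10 without thinning, -1.25 for Maf and 0.28 for Il10 with Foxp3 of 2 or more UMIs, -0.26 for Lrrc32 with Scrublet-marked cells, and 0.19 for Il10 and -0.15 for Itgb8 with Cd8-positive cells.

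Low counts limit Lrrc32 and Itgb8, and the 14 Foxp3+ cells of LR mouse 1 limit the treatment comparison.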
